A study of Saccharomyces cerevisiae with 19 samples.

Results

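The 10 genes described here encode the core of the thiol antioxidant system of budding yeast. They are the cytosolic thioredoxin genes TRX1 and TRX2, the thioredoxin reductase gene TRR1, the peroxiredoxin genes TSA1, TSA2, AHP1 and PRX1, and the glutathione genes GSH1, GLR1 and GPX2. They were chosen by symbol as members of one pathway and not by a rule on their values, though with earlier results of these data known. They are 10 of the 5449 genes tested, each read by 1 probe set. RNA was measured on 19 Affymetrix Yeast 2.0 arrays, 1 for each strain and time. The strain labelled Sch9 Mutant, called the sch9 mutant here, had 9 arrays, at 12 h intervals, the first at 12 h and the last at 108 h. The strain labelled Wild Type had 10 arrays, from 12 to 120 h. Sch9 is a protein kinase of nutrient signalling. Both strains came from frozen stocks, were diluted from overnight growth in SDC (synthetic complete medium) and received no treatment; the labels give no further genotype, no strain background and no replicate culture of any time. All p-values for these genes therefore measure the spread over time points and not over independent cultures. They also take successive times as independent, which was not tested. The number of arrays sets the precision.

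Thioredoxins are small proteins that reduce disulphide bonds in other proteins, and thioredoxin reductase recharges them with electrons from NADPH. Peroxiredoxins use thioredoxin, or in mitochondria also glutathione, to break down hydrogen peroxide and organic peroxides. Glutathione is a cysteine-containing tripeptide that serves the same redox buffer role in parallel, kept reduced by its own NADPH-dependent reductase, and in yeast many genes of both branches are targets of the peroxide-activated transcription factor Yap1.

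Signals are given on a log2 scale after quantile normalization across the 19 arrays, and differences are sch9 mutant minus wild type, averaged over the 9 times that both strains share. Genes were tested with limma, with time as a block. The threshold was 0.05 for p-values adjusted by the method of Benjamini and Hochberg over all 5449 genes. SCH9 itself had signals of 10.07 to 10.59 in the sch9 mutant and 10.43 to 11.26 in the wild type, a difference of -0.52 ± 0.39 (SD, n = 9, exact permutation p = 0.00781, two-sided), so its probe set still gave signal in the labelled mutant. In the values as deposited that difference was -0.39 (exact permutation p = 0.109). URA3, the other planned label check, was higher in the sch9 mutant at all 9 times. Its difference was 1.78 ± 0.36 (SD, n = 9, exact permutation p = 0.00391, two-sided), and 1.90 in the values as deposited. The deposited signal of the 3' control probe set for 18S ribosomal RNA lay between 6.69 and 7.68 in the sch9 mutant and between 8.03 and 14.6 in the wild type, where the highest values came from 84 h on. A score of 3' over 5' signal of 10 control pairs lay between 0.73 and 1.06 in the sch9 mutant and between 0.80 and 1.44 in the wild type. Of 4 genes specific to mating type alpha 3 were lower and none higher in the sch9 mutant, where 26.8% of all genes were lower. Their mean list signal was 9.22 to 12.78 in sch9 mutant arrays and 10.73 to 12.52 in wild-type arrays. Of 5 genes specific to type a 2 were higher and none lower, where 32.4% of all genes were higher. Their mean list signal was 8.10 to 8.59 in the sch9 mutant and 7.90 to 8.49 in the wild type. The part that RNA quality or cell type plays in the results below was not tested, beyond a fit that took the 3' to 5' score as covariate.

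The first comparison asked whether the strains differed in these genes at matched times. GSH1 and TRR1, which make glutathione and recharge thioredoxin, were lower in the sch9 mutant at all 9 times, while TRX1 and GLR1 were slightly higher. GSH1 reached 0.596 of the wild-type level and TRR1 0.689. In the values as deposited both were lower at 8 times and higher at 12 h, by 0.23 for GSH1 and 0.13 for TRR1. The other 6 genes, among them all 4 peroxiredoxins, did not pass. This made 4 of 10 genes past the threshold, 2 higher and 2 lower, where 59.2% of all tested genes passed, 32.4% higher and 26.8% lower. The median difference of the 10 genes was -0.11, against 0.03 over all genes.

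**Figure D1:**
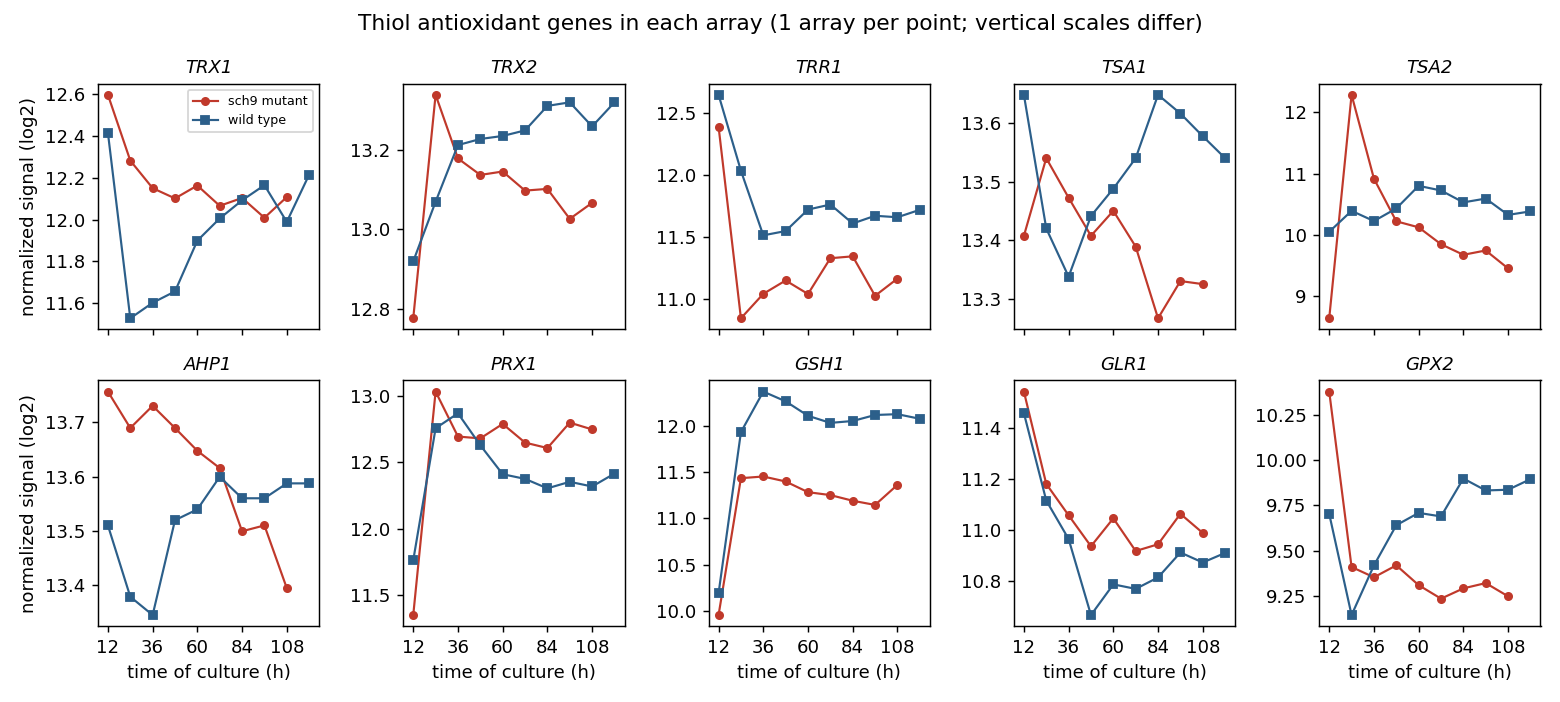
Normalized log2 signal of the 10 genes (vertical axes, scaled for each gene) against time of culture in hours, with 1 array per point, sch9 mutant as red circles and wild type as blue squares. GSH1 and TRR1 run lower in the sch9 mutant at every shared time, and the TSA2 signal of the sch9 mutant peaks at 12.29 at 24 h, above the 10.80 that is the highest wild-type value.

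In the thioredoxin branch, TRR1 (YDR353W) had signals of 10.84 at the lowest, 11.15 at the median and 12.39 at the highest of the sch9 mutant arrays, against 11.51, 11.69 and 12.64 in the wild type. The highest value of each strain was the 12 h array, and from 24 h on the strains did not overlap, with the sch9 mutant at 10.84 to 11.34 and the wild type at 11.51 to 12.03. The difference was -0.54 (SE 0.092, limma adjusted p = 0.000488). It ran from -1.19 at 24 h to -0.26 at 12 h. GSH1 and TRR1 were the members without overlap from 24 h on, both with the sch9 mutant below, as 10.2% of all genes were; when 12 h was included no member was free of overlap, against 2% of all genes below and 3.54% above. TRR1 kept its direction and call under all 22 alternative settings, with differences between -0.90 and -0.46.

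TRX1 (YLR043C) and TRX2 (YGR209C) are paralogs that encode cytosolic thioredoxins. The TRX1 signal had a lowest, median and highest value of 12.01, 12.11 and 12.60 in the sch9 mutant and of 11.53, 12.00 and 12.42 in the wild type, so the strains overlapped. It was higher in the sch9 mutant at 8 of 9 times, by 0.25 on average (SE 0.093, limma adjusted p = 0.0375), with 0.76 at 24 h as the highest difference and -0.16 at 96 h as the lowest. The call was lost in the values as deposited (0.09) and when 24, 36, 48, 60 or 108 h was left out (0.18 to 0.26), and also with array weights (0.12), without time blocks (adjusted p = 0.0877) and from 36 h on (0.18). With median centring the difference was -0.16. TRX2 had 12.78, 13.10 and 13.34 in the sch9 mutant and 12.92, 13.24 and 13.32 in the wild type. Its difference of -0.10 (SE 0.064, adjusted p = 0.18) did not pass, although it was negative at 8 of 9 times.

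The within-array ratio of both thioredoxin signals compares how the paralogs moved on the same arrays; its own size also holds the difference between the probe sets, so it is read between strains only. TRX2 over TRX1 averaged 0.92 (log2) in the sch9 mutant and 1.27 in the wild type. The time-matched difference was -0.35 ± 0.15 (SD, n = 9) and was negative at 9 of 9 times (exact permutation p = 0.00391, the smallest this design allows; adjusted p = 0.00781 over 2 paralog pairs). It was -0.58 at 36 h and -0.14 at 96 h. Differences at neighbouring times were mostly alike, and the test takes the times as independent. The sign was the same in the values as deposited (-0.66) and with cyclic loess (-0.37). Median centring shifts all genes of an array alike, so its value (-0.66) repeats the deposited one.

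**Figure D2:**
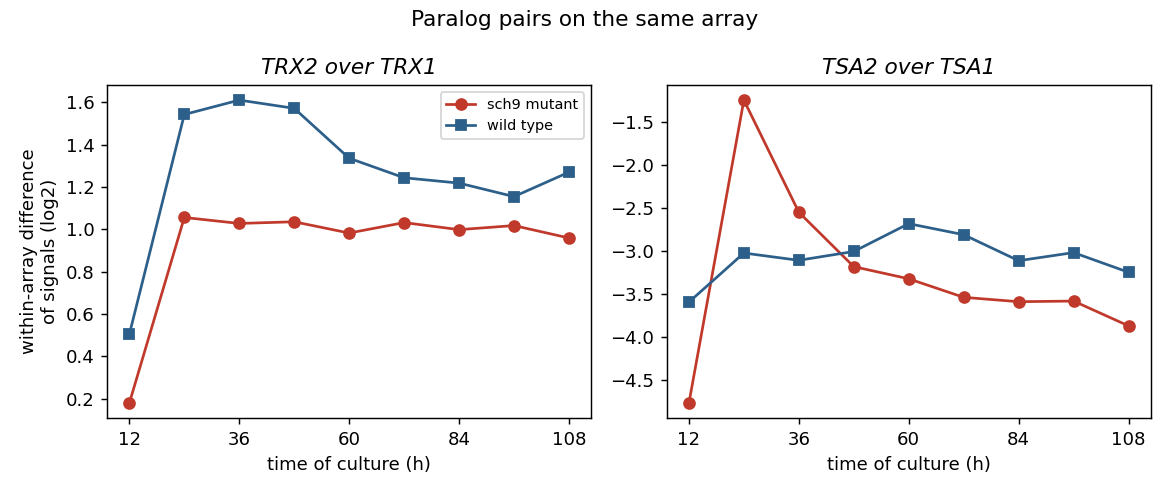
Within-array log2 difference of the signals of TRX2 and TRX1 (left) and of TSA2 and TSA1 (right) against time in hours, 1 array per point, sch9 mutant in red and wild type in blue. The TRX2 over TRX1 ratio of the sch9 mutant lies below that of the wild type at each of the 9 times, whereas the TSA2 over TSA1 curves cross between 12 and 24 h and again between 36 and 48 h.

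Among the peroxiredoxins, TSA1 (YML028W) and AHP1 (YLR109W) encode abundant cytosolic enzymes, and their probe sets were among the brightest on every array, at percentile 98.9 of all genes or above. TSA1 had signals of 13.27, 13.41 and 13.54 (lowest, median, highest) in the sch9 mutant and 13.34, 13.54 and 13.65 in the wild type. AHP1 had 13.40, 13.65 and 13.76 in the sch9 mutant and 13.35, 13.55 and 13.60 in the wild type. The ranges of the strains overlapped for both, and the differences of -0.12 for TSA1 and 0.10 for AHP1 did not pass. For these bright probe sets the scaling set the value. The values as deposited gave -0.62 for TSA1 and -0.41 for AHP1, and median centring gave -0.87 and -0.66, while the median difference of all genes was 0.17 as deposited and -0.09 with median centring.

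PRX1 (YBL064C) encodes the mitochondrial peroxiredoxin. It had 11.35, 12.70 and 13.03 in the sch9 mutant and 11.76, 12.39 and 12.87 in the wild type, with the 12 h array lowest in each strain. The difference of 0.17 (SE 0.095, adjusted p = 0.131) did not pass. It was negative at 12 and 36 h and positive at the other 7 times, and with median centring it was -0.36 (adjusted p = 0.045).

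TSA2 (YDR453C) encodes a stress-inducible paralog of TSA1, and in the sch9 mutant its signal spanned a wider range than that of any other of the 10 genes. In the sch9 mutant its signal was 8.64 at 12 h, 12.29 at 24 h and 9.46 at 108 h, with a median of 9.85. In the wild type it was 10.05 at 12 h, 10.39 at 24 h and 10.33 at 108 h, with a median of 10.41 and a highest value of 10.80 at 60 h. The sch9 mutant thus held the lowest and the highest TSA2 value of the series, 1 sampling interval apart and 12.5-fold different, and the wild-type range lay between them. The strain difference was -1.41 at 12 h, 1.89 at 24 h and 0.69 at 36 h, and from 60 h on between -0.88 and -0.68. Its mean of -0.35 (SE 0.291, adjusted p = 0.319) did not pass. The 24 h array of the sch9 mutant, on which the peak rests, also had the highest 3' to 5' score of that strain, 1.06 against 0.95 at most in its other arrays, and with that score as covariate the mean difference of TSA2 was 0.36. The TSA2 over TSA1 ratio differed by -0.23 ± 0.89 (SD, n = 9, exact permutation adjusted p = 0.438 over 2 pairs); it was 0.44 in the values as deposited and -0.48 without 24 h (exact permutation adjusted p = 0.0313).

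In the glutathione branch, GSH1 (YJL101C) encodes gamma-glutamylcysteine synthetase, which catalyses the first and limiting step of glutathione synthesis. Its signal had a lowest, median and highest value of 9.95, 11.28 and 11.45 in the sch9 mutant and of 10.19, 12.09 and 12.37 in the wild type. The 12 h arrays were the lowest of both strains, and from 24 h on the sch9 mutant lay at 11.15 to 11.45 and the wild type at 11.93 to 12.37 with no overlap. The difference was -0.75 (SE 0.080, limma adjusted p = 2.75e-05), from -0.24 at 12 h and -0.50 at 24 h to between -0.97 and -0.76 at the later times. All 22 alternative settings kept the direction and the call, with values between -1.20 and -0.64.

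GLR1 (YPL091W) encodes glutathione reductase. It had 10.92, 11.04 and 11.54 in the sch9 mutant and 10.66, 10.89 and 11.46 in the wild type. The strains overlapped over the course, although at each single time the sch9 mutant was higher, by 0.15 on average (SE 0.050, limma adjusted p = 0.025). The call was lost in the values as deposited (0.20, adjusted p = 0.0938) and when 48, 60 or 72 h was left out (0.13 to 0.15). It was also lost without time blocks, without the times from 84 h on and with the covariate of RNA quality (adjusted p = 0.274, 0.137 and 0.112), and the difference was -0.05 with median centring.

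GPX2 (YBR244W) encodes a glutathione peroxidase homologue that takes its electrons mainly from thioredoxin. It had 9.23, 9.32 and 10.38 in the sch9 mutant and 9.14, 9.71 and 9.90 in the wild type. The mean difference of -0.21 (SE 0.131, adjusted p = 0.18) did not pass, since the sign changed over the course. It was 0.68 at 12 h and 0.27 at 24 h, and lay between -0.61 and -0.07 at the 7 later times. In the values as deposited the mean was 0.08.

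**Figure D3:**
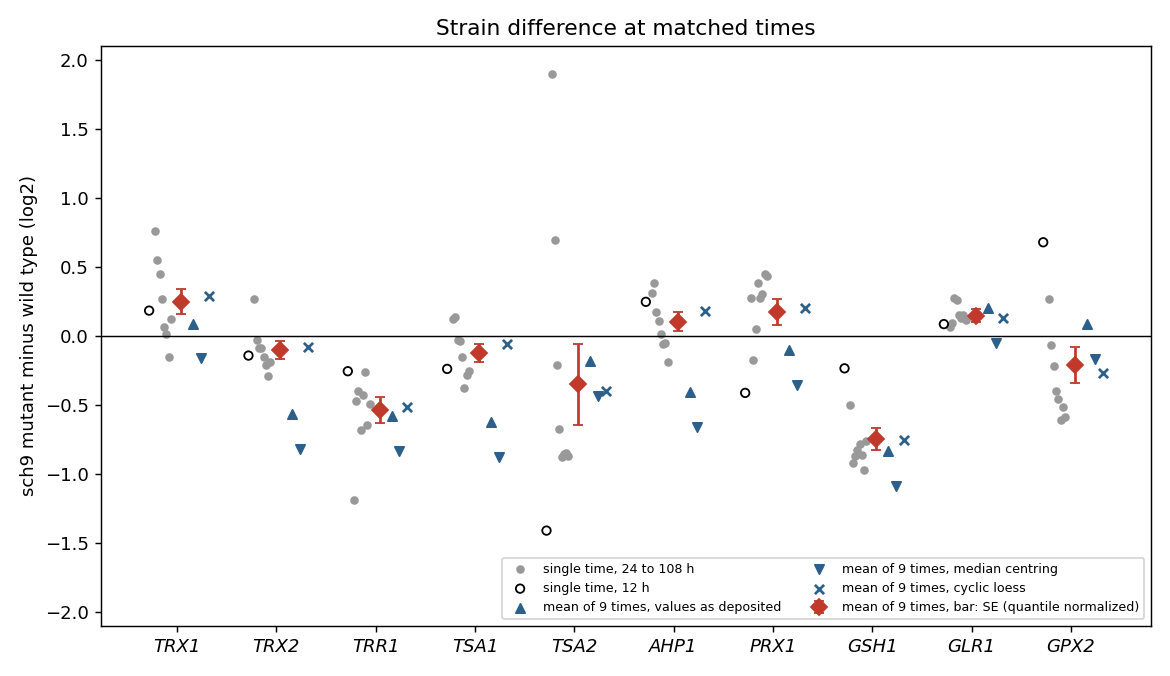
Strain difference of each gene, sch9 mutant minus wild type (log2), at single times (gray dots, open circle for 12 h) and as the mean of 9 times (red diamond, bar SE), with blue marks for the mean under 3 other scalings. GSH1 and TRR1 lie below 0 under every scaling shown, while TRX1, AHP1, PRX1, GLR1 and GPX2 fall on either side of 0.

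The second comparison asked how the genes changed as the cultures left growth, as the mean of 24, 36 and 48 h minus the single 12 h array of each strain, which was assumed to vary like the other arrays. In both strains GSH1 and PRX1 rose and TRR1, TRX1 and GLR1 fell. GSH1 rose by 1.48 in the sch9 mutant and by 2.00 in the wild type (SE 0.137 each; limma adjusted p = 4.13e-07 and 2.26e-08). PRX1 rose by 1.46 in the sch9 mutant and by 0.99 in the wild type. TRR1 fell by 1.38 in the sch9 mutant and by 0.95 in the wild type. In the sch9 mutant 8 of the 10 genes passed, 4 up and 4 down, where 59.9% of all genes did, 27.2% up and 32.7% down. In the wild type 7 passed, 3 up and 4 down, where 62.3% of all genes did, 28.7% up and 33.6% down.

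TSA2 was the gene whose change differed most between strains. It rose by 2.50 in the sch9 mutant (SE 0.478, limma adjusted p = 0.000354), and its change in the wild type was 0.30 (adjusted p = 0.605). The difference of the changes was 2.20 (SE 0.676, adjusted p = 0.0284). That call was lost in the values as deposited (1.71, adjusted p = 0.0609) and when 36 h (2.25, adjusted p = 0.0587) or else 72 h (2.20, adjusted p = 0.0526) was omitted. Without 24 h, when the peak array is left out, the difference was 1.65. That value rests largely on the single 12 h array of each strain. The TSA2 strain difference was -1.41 at 12 h, 0.69 at 36 h and -0.21 at 48 h. GPX2 fell by 0.99 in the sch9 mutant (adjusted p = 3.26e-05), and its change in the wild type was -0.30 (adjusted p = 0.0806). The difference of -0.68 (SE 0.204, adjusted p = 0.025) was lost without 36 h (-0.66, adjusted p = 0.0681).

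These were 2 of 10 genes, where 25.2% of all genes differed in their change. The difference of GSH1, -0.53 (SE 0.194, adjusted p = 0.0599), did not pass. TRX1 fell by 0.42 in the sch9 mutant and by 0.82 in the wild type, and TRX2 rose by 0.44 in the sch9 mutant and by 0.25 in the wild type. The TRX2 rise did not pass under the 3 other scalings in the sch9 mutant (0.04 to 0.25), and in the wild type 9 of 14 alternative settings lost it (0.06 to 0.37). GLR1 fell by 0.49 in the sch9 mutant and by 0.54 in the wild type. TSA1 changed by 0.07 in the sch9 mutant, which did not pass, and fell by 0.25 in the wild type (adjusted p = 0.0471), a call kept in 7 of 14 settings and absent without 36, 60, 72, 96 or 108 h. The AHP1 changes of -0.05 in the sch9 mutant and -0.10 in the wild type did not pass. The wild-type 12 h array had the lowest median of all deposited columns, 9.44, and in the values as deposited the median change of all wild-type genes was 0.39, against -0.06 after normalization. There the wild-type falls of TRX1 (-0.18) and TRR1 (-0.33) did not pass. The wild-type changes of TSA1 (0.39), AHP1 (0.54), GLR1 (0.09) and GPX2 (0.17) were positive, and of these the AHP1 change alone exceeded that median.

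**Figure D4:**
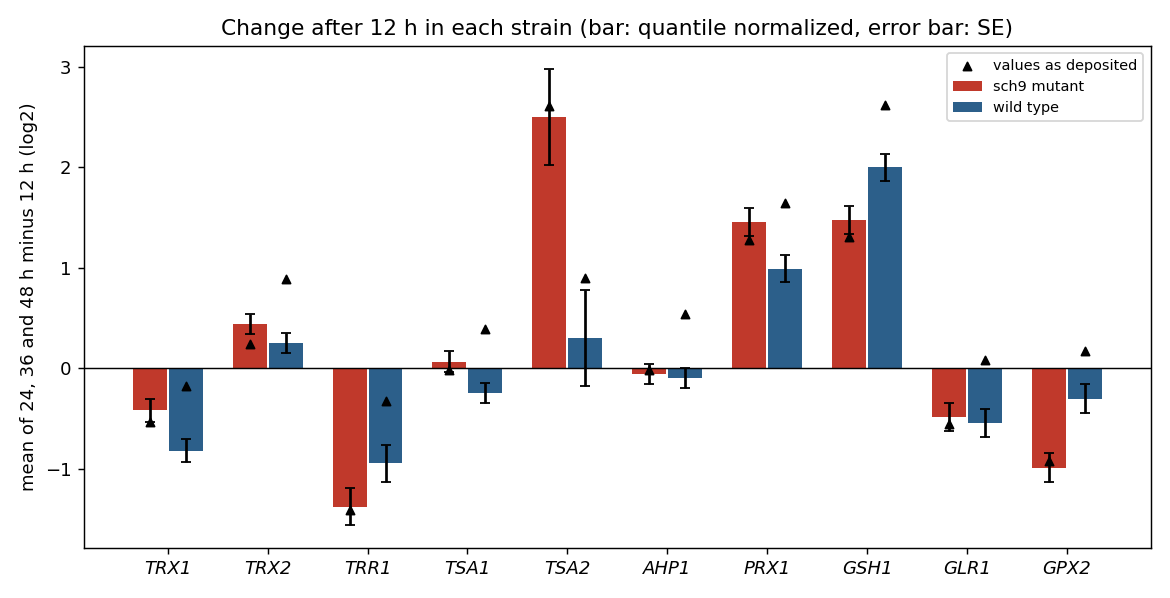
Change from 12 h to the mean of 24, 36 and 48 h (log2) for each gene, sch9 mutant in red beside wild type in blue, with bars for normalized values, error bars for SE and triangles for the values as deposited. The TSA2 bar is 2.50 in the sch9 mutant and 0.30 in the wild type, and the wild-type triangles lie above their bars for each gene.

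The third comparison asked whether the genes drifted with time. Over all times AHP1 fell in the sch9 mutant by 0.08 per 24 h (SE 0.026, limma adjusted p = 0.0456), which made 1 of 10 genes where 10% of all genes passed. None of the 10 passed in the wild type, where 11.3% of all genes did and where TRX2 and GPX2 had an unadjusted p under 0.05. No difference between the slopes passed either, where 2.86% of all genes did; TRX1, AHP1 and GPX2 had an unadjusted p under 0.05, and AHP1 (-0.13, adjusted p = 0.0529) and GPX2 (-0.28, adjusted p = 0.0593) lay nearest to the threshold. The AHP1 call was lost in the values as deposited and with median centring, where its slope was steeper, and without any single time from 36 h on.

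The 12 h arrays weighed on these slopes, and without them more genes passed. The slope of the sch9 mutant was then below that of the wild type for 6 of the 10 genes and above it for none, where 31.8% of all genes passed, 17.2% below and 14.6% above. The slope differences per 24 h were -0.67 for TSA2 (adjusted p = 0.00134), -0.22 for TRX1 (adjusted p = 0.000889), -0.20 for GPX2 (adjusted p = 0.0025), -0.14 for AHP1 (adjusted p = 0.00326), -0.12 for TSA1 (adjusted p = 0.0123) and -0.11 for TRX2 (adjusted p = 0.0126). Those of TSA1, TSA2 and AHP1 passed under all 3 other scalings as well, while those of TRX1, TRX2 and GPX2 did not in the values as deposited (-0.15, -0.21 and -0.05). From 36 h on, which also leaves out the peak array, the TSA2 slope difference was -0.41 (adjusted p = 0.00432). In the sch9 mutant without 12 h TSA2 fell by 0.66, AHP1 by 0.09 and TRX2 by 0.07 per 24 h, 3 genes down and none up, where 28.7% of all genes passed, 14.3% down and 14.4% up. In the wild type without 12 h TRX1 rose by 0.17, GPX2 by 0.16, TSA1 by 0.06 and AHP1 by 0.06 per 24 h and PRX1 fell by 0.12, 5 genes where 41.5% of all genes passed, 20.8% in each direction. Under the other scalings without 12 h the TSA2 fall passed each time in the sch9 mutant and the TRX1 rise in the wild type, while TRX2 and AHP1 in the sch9 mutant and GPX2, TSA1, AHP1 and PRX1 in the wild type kept their sign but not always the call. The wild-type 18S signal and 3' to 5' score rose over the same times, and their part in these slopes was not tested.

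Genes that work beside the 10 were described by lists, and the members of a list that are not counted as higher or lower did not pass. Over all genes 32.4% were higher and 26.8% lower, and the median was 0.03. No list was tested as a set. Of 9 other thioredoxin and peroxidase genes 4 were higher in the sch9 mutant and 1 was lower, and the median was 0.16. The mitochondrial methionine sulphoxide reductase gene MXR2 was higher by 0.97 (adjusted p = 3.17e-05; signals of 11.47 to 12.40 in the sch9 mutant and 10.87 to 11.83 in the wild type) and the mitochondrial thioredoxin gene TRX3 by 0.52, a call lost with median centring (0.16). CCP1, the mitochondrial cytochrome c peroxidase gene, was lower by 1.81 on the log2 scale (adjusted p = 0.000144). CCP1 signals were 10.26 to 12.13 in the sch9 mutant, the highest at 24 h, and 11.91 to 13.02 in the wild type. Of 8 glutaredoxin genes 3 were higher and 2 were lower, and the median was 0.14. GRX4 was higher at 0.67 and GRX2 at 0.51, and GRX3 was lower at -0.93 and GRX6 at -0.71. GRX3 and GRX4, whose products are both iron-sensing nuclear glutaredoxins, thus had opposite signs, under all 3 other scalings as well, while GRX2 did not pass as deposited (0.29) or with median centring (0.04).

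Of 9 measured genes of glutathione synthesis, turnover and transport 1 was higher and 5 were lower, against 32.4% and 26.8% of all genes. The median of the list was -0.30. OPT1, an oligopeptide transporter gene that also carries glutathione, was lower at -1.23 (adjusted p = 0.00193) and the glutathione-degrading enzyme gene GCG1 at -0.69 (adjusted p = 7.77e-05). GEX1, a glutathione exchanger gene, was higher at 0.49, read by a probe set shared with other sequence and so uncertain. Among the 7 glutathione transferase genes 4 were higher and 1 was lower, against 32.4% and 26.8% of all genes. The median of the list was 0.46. The omega-class gene GTO3 was higher by 1.53 (adjusted p = 0.000136; 7.67 to 9.90 in the sch9 mutant and 7.38 to 8.14 in the wild type) and GTT1 by 0.91, which did not pass with median centring (0.49, adjusted p = 0.059). GTT3 was lower at -0.41.

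Of 12 genes that supply NADPH 1 was higher and 6 were lower, against 32.4% and 26.8% of all genes. The median of the list was -0.12. The pentose phosphate enzyme genes GND1 (-0.66, adjusted p = 9.37e-05) and ZWF1 (-0.35, adjusted p = 0.000477) were lower. SOL4 was higher at 0.62 (adjusted p = 0.0456), a call lost with median centring, with cyclic loess and without any of 24, 36, 48, 60, 72 or 96 h.

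Of 4 regulator genes YAP1, for the peroxide-activated factor, was higher at 0.35 (adjusted p = 0.00821), though not past the threshold with median centring (0.20), without the times from 84 h on (0.23) or with the covariate of RNA quality (0.13). SKN7, for its partner factor, was lower at -0.32 (adjusted p = 0.026), a call lost in the values as deposited and without 36, 48 or 60 h. YBP1 (0.18, adjusted p = 0.0509) and CAD1 (0.20, adjusted p = 0.173) did not pass. Of 9 other Yap1 target genes 2 were higher and 5 were lower, against 32.4% and 26.8% of all genes. The median of the list was -0.16. OYE2, an NADPH oxidoreductase gene, was lower at -1.05 and AAD6, a putative aryl-alcohol dehydrogenase gene, at -1.26. GRE2 (0.31) and CYC3 (0.26) were higher, and of these GRE2 was -0.18 with median centring and CYC3 did not pass under any of the 3 other scalings.

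**Figure D5:**
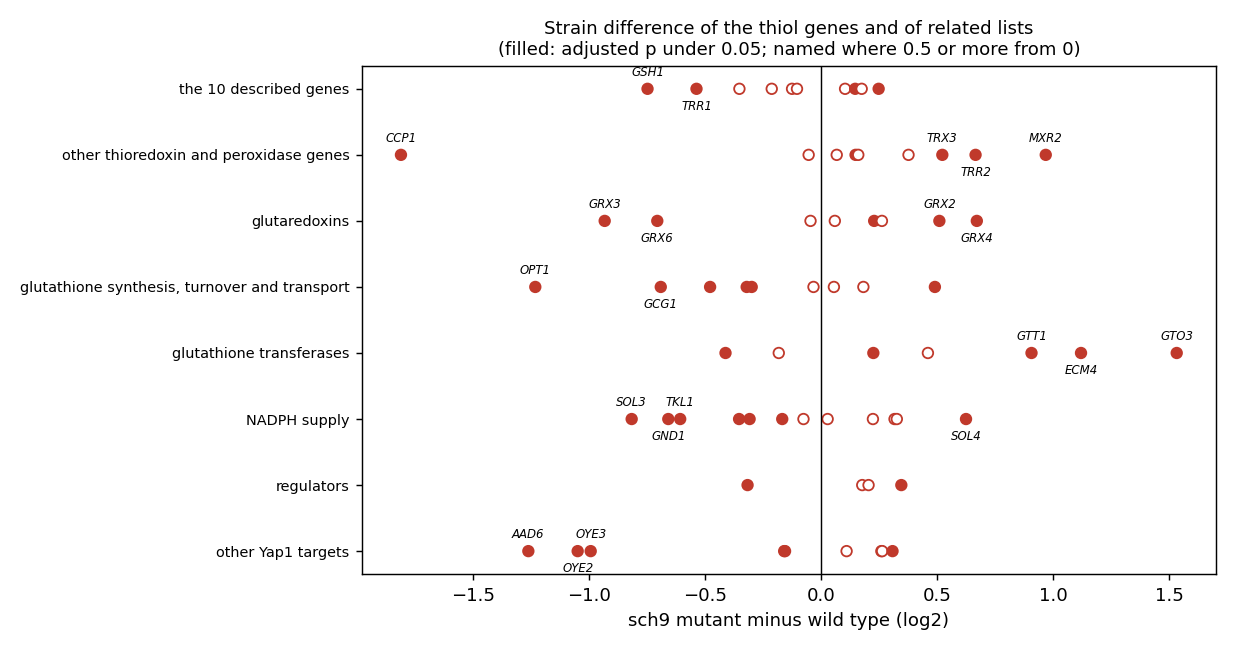
Strain difference, sch9 mutant minus wild type (log2, horizontal axis), of the 10 genes and of the members of 7 lists (rows), with filled points for an adjusted p under 0.05 and names at 0.5 or more from 0, a mark chosen after the values were seen. CCP1 at -1.81 lies farthest below 0 and GTO3 at 1.53 farthest above it.

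For each gene the genes with the most similar profile over the 19 arrays were found by Pearson's r, given as a description of arrays that share 2 strains and a common time course. TSA2 was most like CTT1, the cytosolic catalase gene (r = 0.963), and ALD2, an aldehyde dehydrogenase gene (r = 0.916), and without the 12 h arrays r was 0.976 and 0.907 over 17 arrays. GSH1 was most like UBC8 (r = 0.986) and GID8 (r = 0.984), PRX1 like YLR345W (r = 0.977) and FOX2 (r = 0.968), and TRR1 like HTS1 (r = 0.966) and YGR054W (r = 0.965). TRX1 was most like RBL2 (r = 0.936) and RPL39 (r = 0.923), and TRX2 like MTC2 (r = 0.958) and SDS24 (r = 0.945). GLR1 was most like EFR3 and ARC35, and GPX2 like YLR285C-A and PRM1, each with r between 0.933 and 0.956. Over the 19 arrays the bright genes had lower values, 0.876 for TSA1 with PSD2 and 0.876 for AHP1 with ERG24, followed by IRC24 (0.861) and GCR1 (0.851). Without the 12 h arrays the bright genes were not the lowest. There r was 0.902 for TSA1 with PSD2 and 0.913 for AHP1 with ERG24. It was 0.875 for GLR1 with EFR3, 0.908 for TRX2 with MTC2 and 0.964 for GSH1 with UBC8. Among the 10 genes themselves the highest r over the 19 arrays was 0.848, between GSH1 and TRX2, and the lowest was -0.849, between GLR1 and GSH1. Both leaned on the 12 h arrays, since without them these pairs had 0.631 and -0.573. The highest was then 0.832, between TSA1 and TRX2, and the lowest -0.800, between GPX2 and PRX1. For GSH1 with PRX1 r changed from 0.516 to -0.506.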

How the data were processed

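RNA of 19 yeast samples was read on Affymetrix Yeast 2.0 arrays. The authors deposited log2 probe set signals between 5.76 and 15.02 (summary and normalization steps: not given in the sources used here). Raw intensities were not used here. Column medians ranged from 9.44 to 10.05, a range of 0.62 above the set limit of 0.1, so signals were quantile normalized over the tested genes.

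Controls (51) and probe sets without a gene (265) were left out of 5814. The remaining 5498 matched the R64 annotation, 12 symbols were updated, and for 47 genes the probe set with the highest mean was kept, leaving 5449 genes. Files name no genome build, so no coordinates are given.

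limma 3.58.1 in R 4.3.3 fitted 3 models: strain with time as a block, which pairs the arrays of one time (8 residual degrees of freedom), linear slopes per 24 h (15), and windows (11). Paralog ratios had exact sign permutation tests (scipy 1.17.1). All fits were tested on simulated data. The alternatives were other scalings, filters, weights, time sets, a covariate and leaving out each shared time. The 12 h omission combined with other scalings, and the overlap from 24 h on, were chosen after seeing the data. Members and lists were chosen with earlier results of these data known. Named were all 10 members, up to 2 list genes in each direction with the smallest p, all regulators, and the 2 most similar genes of each member.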

Additional observations from a re-analysis of the deposited data

Results flagged for a closer look

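In 9 of the 20 groups formed by a gene and a strain, the 12 h array stood apart from the others of its strain by Dixon's criterion. Chance meets it in about 1 of 20 independent groups, but these groups share the same 12 h arrays, so that rate does not apply. The share of all genes that meet it was not computed. The change after 12 h passed for 59.9% of all genes in the sch9 mutant and 62.3% in the wild type. In the sch9 mutant the flagged genes were TRX1 (12.60), TRR1 (12.39), PRX1 (11.35), GSH1 (9.95), GLR1 (11.54) and GPX2 (10.38). In the wild type they were TRR1 (12.64), PRX1 (11.76) and GSH1 (10.19). No array of another time stood apart in this way. The criterion divides by the full range of a group, so an extreme 12 h value makes another array harder to flag. The 24 h peak of TSA2 in the sch9 mutant (12.29, against 8.64 at 12 h) was not flagged. The change after 12 h differed between the strains for TSA2, by 2.20 (limma adjusted p = 0.0284), and for GPX2, by -0.68 (limma adjusted p = 0.025).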

How the results depend on the processing

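The design pairs the arrays of the strains by time, and the fit without that pairing (no replicate block) called 2 of the 10 genes for the strain difference, TRR1 and GSH1, against 4 with it. It was 8 with array weights and 7 from 36 h on, and 2 to 6 with single times left out. Of all 5449 genes 3225 passed in the reported fit and 2335 without the pairing. With array weights 4183 passed, from 36 h on 3771, and with single times left out 2878 to 3478. For the slope of the sch9 mutant, 1 gene in the reported fit, the count was 0 as deposited, with median centring, without dim genes and with an intensity trend and robust prior, 2 with cyclic loess, array weights or 36 h and later, 3 with log2 of hours, and 0 to 3 with single times left out. With 12 h omitted it was 2 as deposited and 4 with cyclic loess. For the wild-type slope, 0 genes in the reported fit, it was 3 with median centring or from 36 h on, 2 with array weights or log2 of hours, and 0 to 5 with single times left out. With 12 h omitted it was 3 as deposited or with cyclic loess and 5 with median centring. For the slope difference, also 0, it was 1 as deposited or with log2 of hours, 2 with median centring or cyclic loess, 4 with array weights, 5 from 36 h on, and 0 to 6 with single times left out. With 12 h omitted it was 5 as deposited, 2 of them with the opposite sign, and 6 with median centring or cyclic loess. For the change after 12 h, 3 wild-type genes passed as deposited in place of 7. The strain difference of that change passed for 4 genes as deposited and 6 with array weights in place of 2, and for 0 to 3 with single times left out, 0 without 36 h and 1 without 72 h.

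Strain differences changed sign for TRX1 (-0.16 with median centring, -0.20 also without 12 h), GLR1 (-0.053 and -0.068 in the same settings), AHP1 (-0.41 as deposited, -0.66 with median centring, and -0.52 and -0.75 without 12 h) and PRX1 (-0.10, -0.36, -0.11 and -0.34 in that order). That of GPX2 was 0.084 as deposited and 0.085 with the 3' to 5' score in the model, where TRX2 was 0.021 and TSA2 0.36. The TSA1 change after 12 h in the sch9 mutant was -0.021 as deposited, -0.036 with median centring and -0.27 with cyclic loess. Wild-type changes as deposited were 0.39 for TSA1, 0.54 for AHP1, 0.085 for GLR1 and 0.17 for GPX2, and AHP1 had 0.019 with median centring. The TSA2 slope in the sch9 mutant was 0.0060 without 24 h. The PRX1 slope in the wild type was 0.012 as deposited, 0.081 with median centring, 0.048 with log2 of hours, and 0.027, 0.023 and 7.5e-05 without 24, 36 or 108 h. The TSA2 over TSA1 ratio difference was 0.44 as deposited and with median centring and -0.48 without 24 h, and -0.48 to -0.11 with single times left out. TRX2 over TRX1 kept its sign and call in all 12 settings run. Leaving out a single time could change neither, since all 9 differences were negative. Median centring cancels in a within-array ratio, so the values as deposited and cyclic loess were the settings that could differ. The causes of the changes in this paragraph were not tested.

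Over all genes, the slope of the sch9 mutant passed for 546 genes, against 1657 with array weights, 1228 from 36 h on, 1440 with log2 of hours, 1564 without 12 h (1066 to 1474 with another scaling) and 282 to 342 without 72, 84 or 96 h. The wild-type slope passed for 614 of 5449 genes, against 374 of the 4086 genes left without dim genes. It passed for 1603, 2430 and 1285 in the first 3 settings named for the sch9 mutant. Without 12 h it passed for 2262 (2261 to 2464 with another scaling), and for 306 to 400 without 24, 72, 84, 96 or 108 h. The slope difference passed for 156, against 1533, 1617 and 280, 1732 without 12 h (1637 to 2080) and 58 to 74 without those 5 times. The strain difference of the change after 12 h passed for 1371, against 3236 with array weights and 2172 without 24 h. For the strain difference 54.8% of the passing genes were higher, against 66.3% as deposited and 38.8% with median centring. For the wild-type slope the share rising was 42.7%, against 15.7% as deposited, 68.0% with median centring and 54.6% with cyclic loess, and for the slope difference 39.1%, against 61.3% and 27.3% in the first 2 of these. For the wild-type change after 12 h it was 46.0%, against 77.0% as deposited, and for its strain difference 51.5%, against 10.1% as deposited.

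One array per strain and time and an unknown upstream normalization limit these values. No member has a probe set other than the one used, so that alternative was not run. Bright genes such as TSA1, AHP1 and TRX2 depend most on the scaling: their strain differences were -0.12, 0.10 and -0.10, against -0.62, -0.41 and -0.57 as deposited.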

Other observations

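The mitochondrial members of the thioredoxin system were measured beside the cytosolic ones. The mitochondrial reductase gene TRR2, named after its values were seen, was higher in the sch9 mutant by 0.67 (limma adjusted p = 0.00239, higher at 8 of 9 times) and kept its call under all alternatives run for it. Its signals had a lowest, median and highest value of 10.02, 11.38 and 11.69 in the sch9 mutant and of 10.26, 10.68 and 10.86 in the wild type. The cytosolic reductase gene TRR1 stood at -0.54. The difference between the reductases was not tested.

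CTT1 and ALD2, the genes most like TSA2, had their 24 h peaks in the sch9 mutant too. They were picked for likeness to TSA2 over these same arrays, so the shared peak is no separate evidence. It rests on 1 array, which had the highest 3' to 5' score of that strain (1.06). For the times 12, 24 and 108 h, CTT1 signals were 8.70, 13.00 and 9.58 in the sch9 mutant, against 9.51, 10.63 and 10.93 in the wild type. ALD2 signals were 9.23, 12.10 and 10.17 in the sch9 mutant, against 9.98, 10.57 and 10.93 in the wild type. The sulphiredoxin gene SRX1, whose product repairs overoxidized Tsa1 and which was named after its values were seen, stood at 8.27, 10.49 and 10.02 in the sch9 mutant and at 8.98, 9.84 and 9.96 in the wild type, and its strain difference of 0.38 (adjusted p = 0.0614) did not pass.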
